A study of Schizosaccharomyces pombe with 4 samples.

Results

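The genes described here are the 185 of 5143 genes in the 24°C table that had between 1 and 5 FPKM in growing wild-type S. pombe, 3.60% of the table. FPKM is the number of sequenced fragments of a gene per kilobase of transcript and per unit of library size. The members were chosen by the wild-type value alone, and that value is also the denominator of every change given below, so a change at 24°C is a description of 2 libraries and supports nothing by itself. The exchanged strain, S. pombe fas S.j., carries the S. japonicus fatty acid synthase in place of its own. Its fas1 and fas2 open reading frames were exchanged for the S. japonicus ones with kanMX6 and hygR drug-resistance cassettes, and the wild type carried neither exchange. Both strains grew exponentially in rich YES medium, either at 24°C or at 30°C. Each strain gave 1 poly(A) library at each temperature, which makes 4 libraries. No group has a replicate. The study lists its wild type as a prototroph of mating type h-. Its exchange strains without a GFP tag are a prototroph of type h+ and an h- strain. The h- exchange strain carries the ura4-D18 deletion and mutant alleles of ade6 and leu1. The study does not say which of these was sequenced. The ura4 gene had 165 FPKM in fas S.j. and 139 FPKM in wild type at 24°C. A strain with ura4 deleted would have no ura4 mRNA, so of the exchange strains listed this value points to the h+ prototroph.

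In fission yeast a large part of the weakly transcribed genome belongs to sexual development. Starved cells of opposite mating type mate, and Ste11, an HMG-box transcription factor, turns on pheromone genes and mei2, whose RNA-binding product starts meiosis. Mei4, a forkhead factor, then turns on genes of the meiotic divisions and of spore formation, and during growth the RNA-binding protein Mmi1 removes many meiotic transcripts that are made by leakage. Other weakly expressed genes include the wtf genes, poison and antidote elements that kill spores which do not inherit them, and genes near the chromosome ends, where heterochromatin keeps transcription low.

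Of the members, 178 were found in the RefSeq annotation of assembly ASM294v3. The 300 bases from 250 before to 50 after each annotated start were searched on both strands for 3 motifs. GTAAACA, the core of the FLEX element that Mei4 binds, was in 16.4% of all 5105 promoters, in 19.1% of the members' and in 16 of the 38 (42.1%) that belong to the meiotic lists described below. TTCTTTGTT, the core of the TR-box that Ste11 binds, was in 2.0% of all promoters and in 3 of those 38. TGACGT, the core of the element bound by the stress factor Atf1, was in 5.97% of all promoters, in none of those 38 and in 3 of the 25 members that rose past 2-fold. The first of these motifs was in 1 of the 25 and the second in none. Matches of different motifs shared bases in 15 of all promoters and in 4 of the members'. A match is a stretch of letters and not a binding site. The 250 bases before the start are printed for the member with the largest rise, for the rising member with a pair of Atf1 motifs, and for a spore septin gene, the gene of Mei4 itself and the meiotic dynein gene with their motifs, each on the gene's own strand. Capitals mark matches to the 3 motifs on either strand.

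SPAC977.15, chrI:62701-62950, + strand, no match: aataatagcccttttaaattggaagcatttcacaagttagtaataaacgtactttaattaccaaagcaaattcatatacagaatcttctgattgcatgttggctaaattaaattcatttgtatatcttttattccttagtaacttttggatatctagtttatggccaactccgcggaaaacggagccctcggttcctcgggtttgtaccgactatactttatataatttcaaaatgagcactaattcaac

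SPAC22A12.17c, chrI:1189270-1189519, - strand, 2 Atf1 cores: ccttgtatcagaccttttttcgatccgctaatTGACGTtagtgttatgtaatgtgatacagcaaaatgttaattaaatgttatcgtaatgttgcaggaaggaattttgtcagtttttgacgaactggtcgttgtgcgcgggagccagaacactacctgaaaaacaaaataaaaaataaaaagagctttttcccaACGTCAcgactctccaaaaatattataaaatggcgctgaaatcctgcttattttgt

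spn5, chrI:3075989-3076238, - strand, 2 FLEX cores: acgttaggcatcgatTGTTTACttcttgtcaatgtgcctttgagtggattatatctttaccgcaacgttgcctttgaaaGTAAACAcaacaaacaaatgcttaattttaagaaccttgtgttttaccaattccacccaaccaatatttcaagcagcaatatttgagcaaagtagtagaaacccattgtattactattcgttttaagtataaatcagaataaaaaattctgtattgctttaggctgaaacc

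mei4, chrII:1472818-1473067, + strand, 1 FLEX core: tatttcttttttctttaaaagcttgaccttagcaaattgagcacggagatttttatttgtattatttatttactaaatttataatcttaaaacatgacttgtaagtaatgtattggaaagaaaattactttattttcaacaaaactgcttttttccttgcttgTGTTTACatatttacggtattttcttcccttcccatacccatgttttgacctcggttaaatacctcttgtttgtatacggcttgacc

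dhc1, chrI:4634757-4635006, - strand, 3 TR-box cores, of which the middle runs into a FLEX core: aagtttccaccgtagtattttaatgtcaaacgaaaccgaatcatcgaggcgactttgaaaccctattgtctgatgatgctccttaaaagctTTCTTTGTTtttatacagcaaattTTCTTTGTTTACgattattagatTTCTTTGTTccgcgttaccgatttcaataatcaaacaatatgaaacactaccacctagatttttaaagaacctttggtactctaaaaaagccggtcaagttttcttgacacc

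The exchanged genes were as labelled in the 24°C libraries. The S. pombe fas1 gene had 7.35 FPKM in fas S.j. and 301 FPKM in wild type, and fas2 had 0.320 FPKM in fas S.j. and 336 FPKM in wild type. No read counts were used here, but low FPKM values multiplied by gene length fall on steps of 1 read. The step was worth 0.0946 FPKM on 1 kb in fas S.j. and 0.0744 FPKM on 1 kb in wild type, which corresponds to a library size of about 10600000 fragments in fas S.j. and 13400000 fragments in wild type. At the median transcript length of the members, 1 FPKM in wild type was 17.3 reads and 5 FPKM was 86.6 reads. Changes are log2 of (FPKM + 1) in fas S.j. over (FPKM + 1) in wild type, a scale that understates the change of low genes. A gene is said to have risen at a change of 1 or more and to have fallen at -1 or less, and a member that did neither is given by its values.

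As a group the members were slightly higher in fas S.j. cells, at a median of 3.08 FPKM in fas S.j. and 2.61 FPKM in wild type. Of the 185 members, 129 had more FPKM in fas S.j. cells and 56 had less, with a median change of 0.24 and an SD between members of 0.78. The changes ran between -2.54 and 4.01. Rises were counted for 25 members (13.5%), against 3.04% of the 4967 genes with at least 1 FPKM in either library. Falls were counted for 11 members (5.95%), against 1.73% of those genes. Because the window is set on wild type and holds low values, both shares are read only as descriptions.

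Setting the window on the other library shows how far the choice of library matters. With 1 to 5 FPKM required in fas S.j. instead, the 191 genes chosen had a median change of 0.19, with 21 rises and 13 falls. With the window on the geometric mean of both libraries, the 175 genes chosen had a median change of 0.21, with 15 rises and 8 falls. The small upward shift was therefore present on each of the 3 choices, whereas the excess of rises over falls was widest with the wild-type window. The windows share 121 genes, which are 65.4% of the wild-type window and 63.4% of the fas S.j. window. Of the other members, 44 were above 5 FPKM in fas S.j. and 20 below 1, of which 5 are listed at 0, a value that can be a failed estimate.

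**Figure D1:**
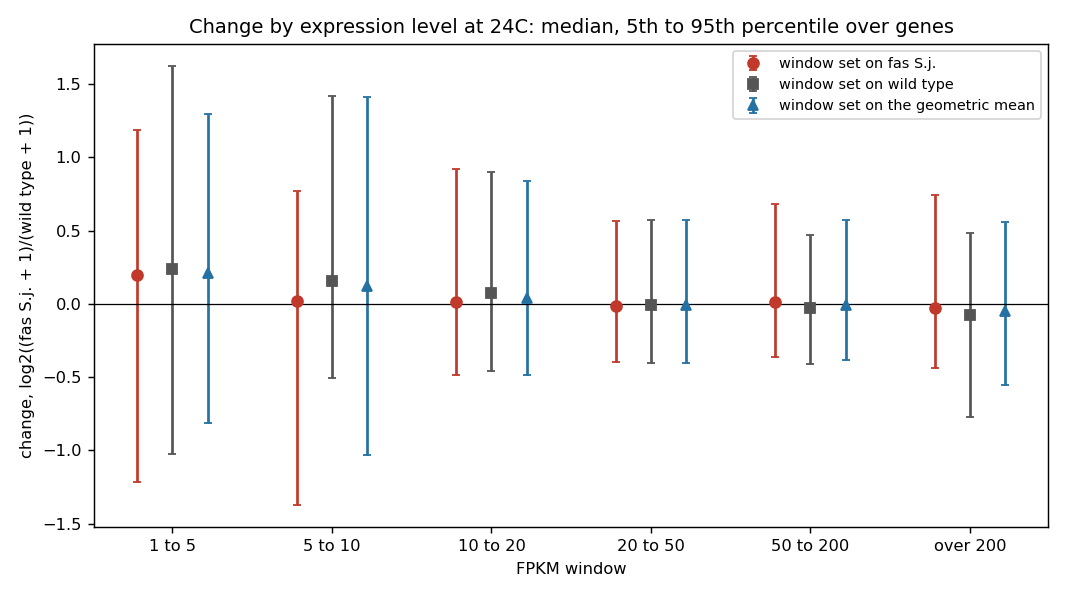
Median change (points) and 5th to 95th percentile over genes (bars) at 24°C for genes in FPKM windows set on fas S.j., on wild type or on the geometric mean of both libraries, with the log2 change on the y axis. In the 1 to 5 window the medians are 0.19, 0.24 and 0.21, and they lie within 0.1 of 0 from 10 FPKM upward.

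Genes in the higher wild-type windows were closer to no change. The median change was 0.16 at 5 to 10 FPKM, 0.08 at 10 to 20, -0.01 at 20 to 50, -0.03 at 50 to 200 and -0.07 above 200 FPKM. Under 1 FPKM it was 0.0 over 226 genes, 106 of which are listed at 0 in both libraries. The pair just inside the lower limit, SPAC27F1.10 and dip5, had 1.90 and 1.90 FPKM in fas S.j. and 1.0 and 1.02 FPKM in wild type, while SPAC5H10.04 and wtf13, just outside it, had 1.26 and 0.832 FPKM in fas S.j. and 0.960 and 0.947 FPKM in wild type. At the upper limit apn1 and SPAC977.13c, inside it, had 12.2 and 4.41 FPKM in fas S.j. and 4.95 and 4.93 FPKM in wild type, and sen2 and wtf17, outside it, had 8.81 and 7.68 FPKM in fas S.j. and 5.01 and 5.05 FPKM in wild type.

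Counting error was large at these levels. For the 175 members whose length allowed an estimate, the median was 44.4 reads in fas S.j. and 42.9 reads in wild type, and 26 members had under 10 reads in a library. An exact binomial 95% interval of the fas S.j. to wild type ratio, which covers counting error only and compares the 2 libraries rather than the strains, lay above 1 for 60 members (background over all genes 28.1%) and below 1 for 16 members (background 29.0%). The members thus had a share above 1 of 34.3% and a share below 1 of 9.14%. These shares are not like for like, since all genes had medians of 750 reads in fas S.j. and 948 reads in wild type. More reads make an interval narrower. At 5 to 10 FPKM in wild type, the interval lay above 1 for 79 of 224 genes and below 1 for 22. Of the 16 members with fewer than 20 reads over both libraries, 8 had more FPKM in fas S.j. and 8 had less, and 4 of the 25 rises came from members with under 50 reads. The 88 members with at least 100 reads held 21 of the rises and 2 of the falls, although more reads in fas S.j. also help a gene to reach that number.

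**Figure D2:**
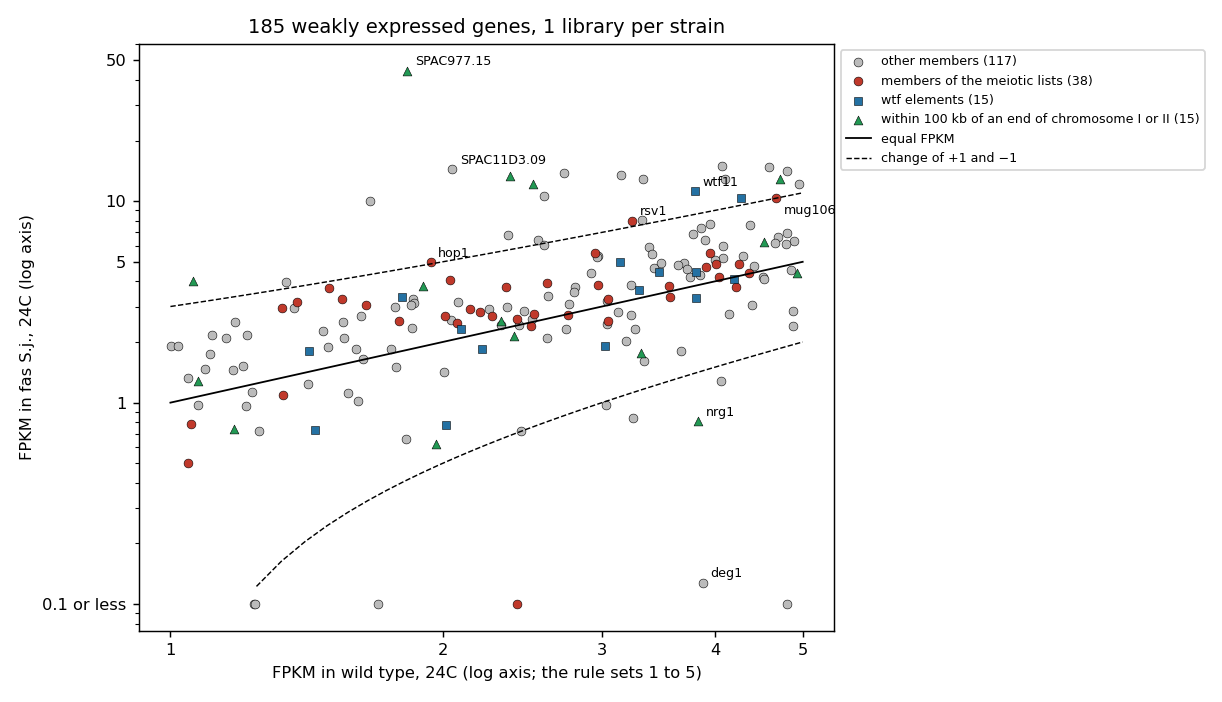
FPKM in fas S.j. (y axis) against FPKM in wild type (x axis) for the 185 members at 24°C, both on log axes, with members of the meiotic lists in red, wtf elements in blue and genes up to 100 kb from the ends of chromosomes I and II in green. The solid line is equal FPKM and the dashed lines are changes of 1 and -1. Members at or below 0.1 FPKM in fas S.j. are drawn at 0.1, and SPAC977.15 stands alone at 44.4 FPKM in fas S.j., and most red points lie between the dashed lines.

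Apart from the wtf gene wtf11, described below, the 15 largest rises were in genes whose annotation names no part in meiosis. SPAC977.15, a member of the dienelactone hydrolase family linked to detoxification, had 44.4 FPKM in fas S.j. and 1.83 FPKM in wild type, a ratio of 24.3 (95% counting interval 15.2 to 42.9). It is alone in its locus at chrI:62951-63862. SPAC11D3.09, an agmatinase, which splits urea from agmatine, had 14.4 FPKM in fas S.j. and 2.05 FPKM in wild type (ratio 7.04, interval 4.84 to 10.9). It shares its locus with SPAC11D3.08c, at 36.4 FPKM in fas S.j. and 19.1 FPKM in wild type. Its neighbour SPAC11D3.10, of the cysteine desulfurase family, had 14.1 FPKM in fas S.j. and 4.80 FPKM in wild type and shares its locus with SPAC11D3.11c, at 15.8 FPKM in fas S.j. and 14.2 FPKM in wild type. SPBPB21E7.09, an L-asparaginase with 1 near-identical copy in the genome, had 13.4 FPKM in fas S.j. and 2.37 FPKM in wild type (ratio 5.64, interval 4.38 to 7.35). Enzymes of small-molecule metabolism also included SPAC22A12.17c, a dehydrogenase, at 12.8 FPKM in fas S.j. and 4.11 FPKM in wild type. It shares its locus with the far stronger acl2, at 486 FPKM in fas S.j. and 433 FPKM in wild type. On the opposite strand, acl2 covers 48.2% of SPAC22A12.17c. SPAC750.01 of the aldo/keto reductase family, which has 1 near-identical copy, had 4.01 FPKM in fas S.j. and 1.06 FPKM in wild type.

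Most of the other large rises were in genes whose products are not characterized. SPCC338.18 had 13.7 FPKM in fas S.j. and 2.72 FPKM in wild type, SPAC186.04c had 12.2 FPKM in fas S.j. and 2.52 FPKM in wild type, and SPCPB16A4.06c had 13.5 FPKM in fas S.j. and 3.15 FPKM in wild type. SPBC3H7.08c had 14.8 FPKM in fas S.j. and 4.58 FPKM in wild type. These are alone in their loci, and the lower bounds of their intervals were between 2.34 and 3.53. SPCC737.04 (12.9 FPKM in fas S.j., 3.33 FPKM in wild type) and SPCC594.03 (14.96 FPKM in fas S.j., 4.07 FPKM in wild type) share their loci with stronger genes. SPCC191.04c and SPAC1F3.08c are short and rest on few reads, 20.5 reads in fas S.j. and 4.34 reads in wild type for SPCC191.04c and 14.3 reads in fas S.j. and 4.41 reads in wild type for SPAC1F3.08c, so that their intervals reach down to 2.13 and 1.40. Of the 44 members annotated only as uncharacterized protein, 11 rose and 2 fell. Among the 69 members without a gene symbol 18 rose (26.1%), with a median change of 0.42. Among the 116 with a symbol 7 rose (6.03%), with a median of 0.15. Of all genes with at least 1 FPKM in either library, 3.04% rose and 1.73% fell. Members without a symbol also had fewer reads where an estimate was possible, at a median of 29.6 reads in wild type. Those with a symbol had 58.3 reads. The contrast between members with and without a symbol was not tested. Members were more often uncharacterized than other genes, 24.7% of them against 6.41% of all genes with at least 1 FPKM in either library.

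**Figure D3:**
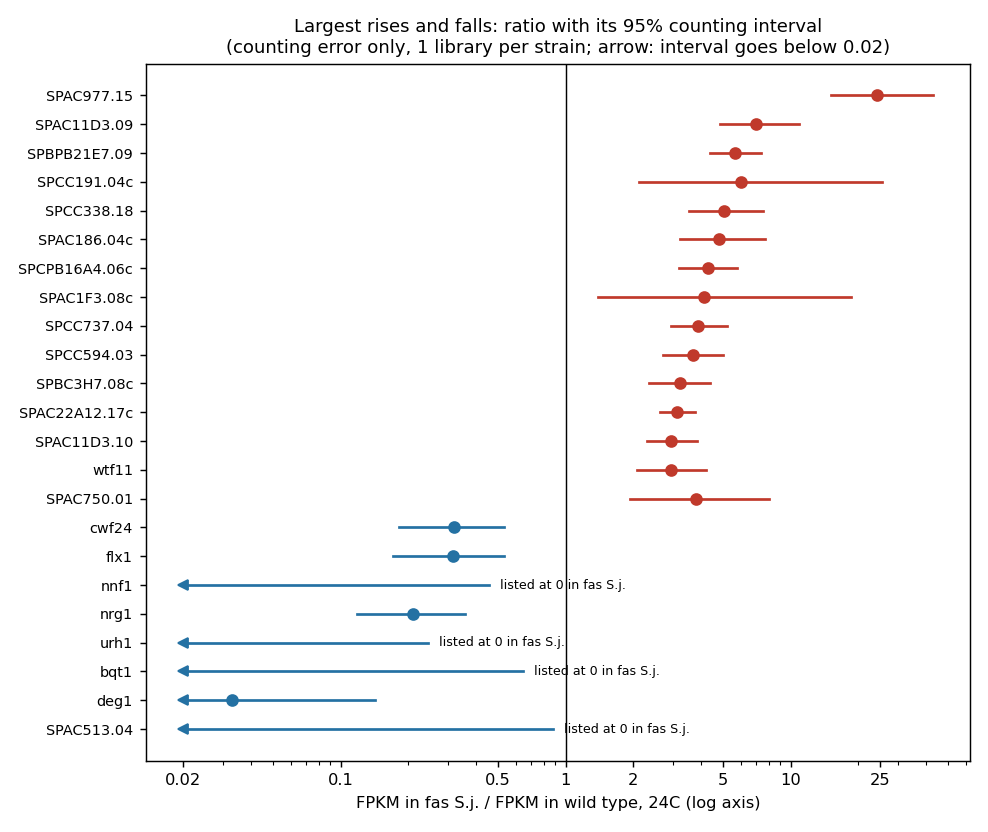
The fas S.j. to wild type ratio of FPKM (points, log axis) with its 95% counting interval (lines) for the 15 largest rises and 8 lowest changes among members whose interval leaves out 1. The SPAC977.15 ratio is 24.3; nnf1, urh1, bqt1 and SPAC513.04 are listed at 0 in fas S.j. and have only an upper bound.

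Meiotic genes formed a large share of the members, and 3 of them rose. Lists of meiotic regulators, of recombination and chromosome segregation genes, of spore formation genes and of the genes named mug (meiotically upregulated) and meu (meiotic expression upregulated) hold 38 members, 20.5% of the 185, against 2.96% of all genes with at least 1 FPKM in either library. Of these 38, 29 had more FPKM in fas S.j. and 9 had less, 3 rose (7.89%, against 3.04% of all genes with at least 1 FPKM in either library) and 1 fell, and the median change was 0.23. The 147 members outside these lists had a median change of 0.24, with 22 rises (14.97%) and 10 falls. The difference between these groups was not tested. In a culture, fewer cells that express a gene and less mRNA per cell cannot be told apart.

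**Figure D4:**
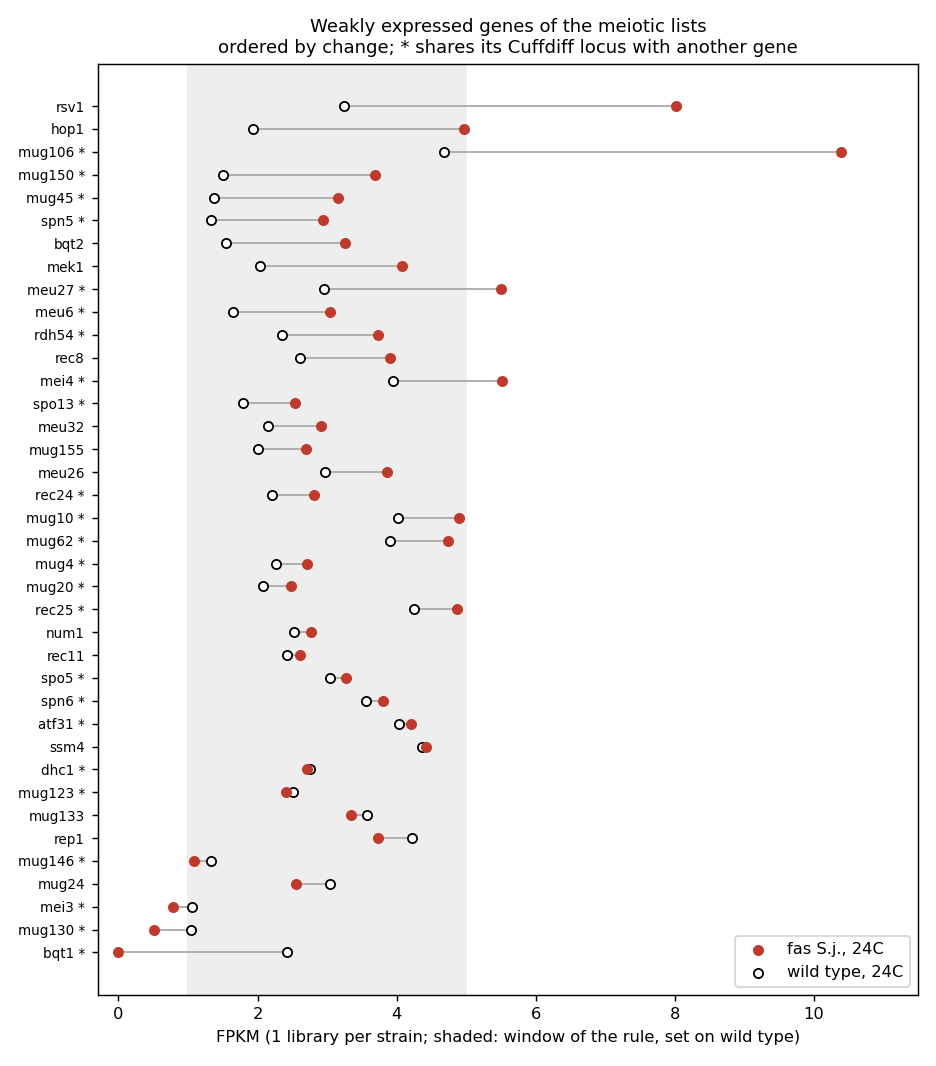
FPKM in fas S.j. (red) and in wild type (open) at 24°C for the 38 members of the meiotic lists, ordered by change; an asterisk marks genes that share their Cuffdiff locus with another gene. The red point lies right of the open one for 29 genes, and rsv1, hop1 and mug106 have the largest rises, and bqt1, listed at 0 in fas S.j., has the lowest change.

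Of the 12 members among recombination and segregation genes, 10 were higher in fas S.j., 1 rose (8.33%) and 1 fell (8.33%). Of all members, 13.5% rose and 5.95% fell, and of all genes with at least 1 FPKM in either library 3.04% and 1.73%. The rise was hop1, which encodes a protein of the meiotic chromosome axis, at 4.97 FPKM in fas S.j. and 1.94 FPKM in wild type (72.8 reads in fas S.j. and 36.1 reads in wild type, ratio interval 1.71 to 3.96). Other genes of the chromosome axis were less far apart. The gene mek1 of the meiotic kinase that acts with Hop1 had 4.07 FPKM in fas S.j. and 2.04 FPKM in wild type, and its interval started at 1.26. The meiotic cohesin gene rec8 had 3.90 FPKM in fas S.j. and 2.61 FPKM in wild type, with an interval of 1.05 to 2.16. The rdh54 gene of a DNA translocase in recombination had 3.73 FPKM in fas S.j. and 2.35 FPKM in wild type. Its interval was 1.23 to 2.07, and 57.6% of it is covered on the opposite strand. The partner of rec8, rec11, had 2.61 FPKM in fas S.j. and 2.42 FPKM in wild type, and the recombination genes rec24 and rec25 also had intervals that include 1. The bouquet genes bqt1 and bqt2, which tether telomeres in meiotic prophase, lay on opposite sides of no change on few reads: bqt2 had 3.26 FPKM in fas S.j. and 1.55 FPKM in wild type (5.42 reads in fas S.j., 3.27 reads in wild type), while bqt1 is listed at 0 in fas S.j. and had 2.42 FPKM in wild type. The bqt1 gene shares a locus with cfr1, at 83.3 FPKM in fas S.j. and 74.0 FPKM in wild type.

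Of the 5 members among meiotic regulators, rsv1 rose and the other 4 neither rose nor fell. The Rsv1 repressor gene, also known for survival in stationary phase, had 8.01 FPKM in fas S.j. and 3.24 FPKM in wild type (ratio interval 1.73 to 3.62), and it is alone in its locus. The mei4 gene had 5.52 FPKM in fas S.j. and 3.95 FPKM in wild type, with an interval of 1.07 to 1.84. Values close to each other were found for atf31, which encodes a bZIP factor, with 4.20 FPKM in fas S.j. and 4.04 FPKM in wild type. The MBF activator gene rep1 had 3.73 FPKM in fas S.j. and 4.21 FPKM in wild type, and mei3, whose product releases Mei2 from its inhibitor kinase, had 0.784 FPKM in fas S.j. and 1.05 FPKM in wild type. Of the 8 regulators outside the window with at least 1 FPKM in either library, 2 fell, against 1.73% of all genes at that level. These were mei2 and ste11, which act first in the pathway. For mei2 the values were 2.86 FPKM in fas S.j. and 49.6 FPKM in wild type, and for ste11 9.81 FPKM in fas S.j. and 37.1 FPKM in wild type.

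The 4 spore formation members were all higher in fas S.j. but none rose. The septin gene spn5 had 2.94 FPKM in fas S.j. and 1.33 FPKM in wild type (ratio interval 1.31 to 3.74). Its partner spn6 had 3.80 FPKM in fas S.j. and 3.56 FPKM in wild type. Another gene covers 97.0% of spn6 on the opposite strand. The spo5 gene of a meiotic RNA-binding protein had 3.27 FPKM in fas S.j. and 3.04 FPKM in wild type, and spo13 had 2.54 FPKM in fas S.j. and 1.79 FPKM in wild type. Of the 17 mug and meu members, 12 were higher and 5 lower, with a median change of 0.23. The counting interval lay above 1 for 6 and below 1 for none. Over all members with an estimate, the shares were 34.3% above 1 and 9.14% below 1. Over all genes they were 28.1% and 29.0%. The 1 that rose, mug106, had 10.4 FPKM in fas S.j. and 4.67 FPKM in wild type and shares its locus with the glycolytic gene gpm1, at 10453 FPKM in fas S.j. and 9839 FPKM in wild type. The other 82 mug and meu genes with at least 1 FPKM, most of them above the window, had a median change of 0.22.

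Transcripts known to be removed by Mmi1 in growing cells showed no rise. All 5 of them in the window (mei4, rec8, ssm4, spo5 and num1) were higher in fas S.j., with changes between 0.02 and 0.44. The mmi1 gene itself had 31.5 FPKM in fas S.j. and 34.3 FPKM in wild type. The 16 meiotic members with GTAAACA had a median change of 0.18 with 0 rises, and the 22 without it a median of 0.30 with 3 rises. Rises were counted for 13.5% of all members and 3.04% of all genes with at least 1 FPKM in either library. With so few genes the contrast says little, and it was not tested. The septin gene spn5, with a motif on each strand in the sequence printed above, had a change of 0.76, the highest of the 16.

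Dynein and its cofactor dynactin move the nucleus in meiotic prophase, and some of their genes are members. The ones given here were picked after their values had been seen, and no count is drawn from them. The dynein heavy chain gene dhc1, with 3 TR-box cores, had 2.72 FPKM in fas S.j. and 2.75 FPKM in wild type on 356 reads in fas S.j. and 459 reads in wild type, which gives an interval of 0.86 to 1.14. The dynactin gene ssm4 had 4.41 FPKM in fas S.j. and 4.36 FPKM in wild type. The dynamitin gene jnm1 had 2.86 FPKM in fas S.j. and 4.88 FPKM in wild type.

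Mating genes are mostly expressed above the window, and the 3 in it did not rise or fall. The P-factor pheromone gene map2 had 2.26 FPKM in fas S.j. and 1.47 FPKM in wild type on 11.27 reads in fas S.j. and 9.34 reads in wild type. The M-factor receptor gene map3, made in P cells, had 6.88 FPKM in fas S.j. and 3.79 FPKM in wild type. However, 99.8% of map3 is covered on the opposite strand. The cell fusion formin gene fus1 had 4.20 FPKM in fas S.j. and 4.52 FPKM in wild type. Genes of the other mating type, M cells, are all outside the window, and 7 of 8 were lower in fas S.j., 5 of them past 2-fold. Falls were counted for 1.73% of all genes with at least 1 FPKM in either library. Of 9 mating genes listed for both types outside the window, 6 were lower in fas S.j. and 3 fell. The P-cell genes outside it, map4 and sxa1, had 7.21 and 220 FPKM in fas S.j. and 7.48 and 236 FPKM in wild type. The wild type is listed as h-, the type of M cells, and the prototrophic exchange strain as h+. For the mating genes, and for mei2 and ste11, mating type and the exchange of the synthase therefore cannot be told apart. SPAC513.04, the member with the lowest change, is listed at 0 in fas S.j. and had 4.81 FPKM (6.65 reads) in wild type. It lies 152 bases from the M-factor gene mfm2, at 0.740 FPKM in fas S.j. and 100.1 FPKM in wild type.

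Of 25 wtf genes 15 were members, and they moved in both directions. They were higher in fas S.j. for 9 and lower for 6, with a median change of 0.10 and 2 rises (13.3%). Rises were counted for 13.5% of all members and for 3.04% of genes with at least 1 FPKM in either library. Both rises were adjacent genes on chromosome III. The wtf11 gene had 11.2 FPKM in fas S.j. and 3.80 FPKM in wild type, and wtf12, 708 bases away, had 10.3 FPKM in fas S.j. and 4.27 FPKM in wild type. The gene on the other side of wtf11, the glutathione transferase gene gst4, shares its locus and had 111 FPKM in fas S.j. and 39.8 FPKM in wild type. The lowest was wtf22, at 0.775 FPKM in fas S.j. and 2.02 FPKM in wild type (6.58 reads in fas S.j., 21.8 reads in wild type). Several wtf genes have near-identical copies, so reads can be divided between them. Of the Tf2 retrotransposons, whose copies are near-identical, Tf2-11 had 1.603 FPKM in fas S.j. and 3.34 FPKM in wild type, and Tf2-2 had 0.977 FPKM in fas S.j. and 1.07 FPKM in wild type.

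Members near the chromosome ends held a wide range of changes. Up to 100 kb from the ends of chromosomes I and II lay 15 members, 8.11% of the 185 against 1.25% of all genes with at least 1 FPKM in either library. Of these, 5 rose (33.3%) and 1 fell (6.67%), against 13.5% and 5.95% of all members. The rises were SPAC977.15, SPBPB21E7.09, SPAC186.04c, SPAC750.01 and SPBC1348.12, a transcription factor gene with 12.9 FPKM in fas S.j. and 4.72 FPKM in wild type. The fall was the amino-acid permease gene nrg1, with 0.807 FPKM in fas S.j. and 3.83 FPKM in wild type (ratio interval 0.12 to 0.36), alone in its locus. Other genes in the same stretches moved too: of 47 outside the window, 18 rose (38.3%) and 8 fell (17.0%). Of all genes with at least 1 FPKM in either library, 3.04% rose and 1.73% fell. Beside SPAC977.15, SPAC977.14c had 354 FPKM in fas S.j. and 103 FPKM in wild type, and dak2 had 15.7 FPKM in fas S.j. and 8.16 FPKM in wild type. Counting only neighbours outside the window, 5 of the 25 members that rose had a neighbouring gene that rose, and 14 of the 143 members that neither rose nor fell did. The median change of these neighbours was 0.21 for the members that rose and 0.01 for the others, a difference that was not tested.

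Of the 11 falls, 8 were in shared loci. Shared loci held 62.7% of all members and 54.6% of all genes with at least 1 FPKM in either library. In 5 of the falls another gene overlapped at least 50% of the length, against 25.8% of members with an annotated position. Several of the falls were in genes that every growing cell uses. The pseudouridine synthase gene deg1 had 0.127 FPKM in fas S.j. and 3.88 FPKM in wild type, the FAD transporter gene flx1 had 1.28 FPKM in fas S.j. and 4.07 FPKM in wild type, and the splicing factor gene cwf24 had 0.973 FPKM in fas S.j. and 3.03 FPKM in wild type. All of deg1 and flx1 and 91.3% of cwf24 is covered by annotated genes on the opposite strand. The paper describes the libraries as strand-specific, but whether Cuffdiff used the strand is not given. The strongest gene in the deg1 locus had 44.3 FPKM in fas S.j. and 46.9 FPKM in wild type. The septation gene cdc14 (93.5% covered, also on the opposite strand) had 0.721 FPKM in fas S.j. and 2.44 FPKM in wild type. The kinetochore gene nnf1 and the uridine ribohydrolase gene urh1 are listed at 0 in fas S.j., with 1.24 and 1.70 FPKM in wild type. Of the 16 members in shared loci listed as genes that every growing cell uses, 10 were lower in fas S.j. and 6 were higher. Of the 10, 6 fell. The higher ones included sec3, with 6.13 FPKM in fas S.j. and 4.79 FPKM in wild type. Another was gpi3, with 6.36 FPKM in fas S.j. and 4.89 FPKM in wild type. How Cuffdiff divided the reads of overlapping genes was not tested.

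Overlap, counted on either strand, was common in the window. Of the members with an annotated position 25.8% were overlapped over at least 50% of their length, against 10.7% of all genes with at least 1 FPKM in either library, and these 46 members had 2 rises and 5 falls. The 97 members with no overlap had 19 rises and 2 falls, and a median change of 0.29. Of the 69 members alone in their Cuffdiff locus, 14 rose and 3 fell with a median change of 0.23, and of the 116 in shared loci 11 rose and 8 fell with a median change of 0.25. Of the 25 rises, 14 were thus in genes with no other gene in their locus, and the medians of both groups were close.

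**Figure D5:**
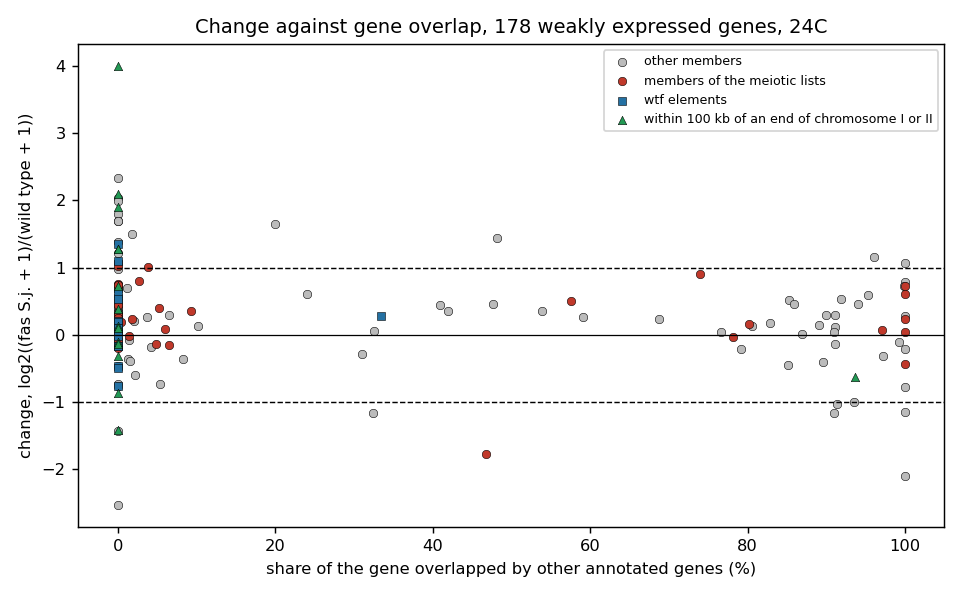
Change at 24°C (y axis, log2) against the share of each gene covered by other annotated genes (x axis, %) for the 178 members with an annotated position. Most points above 1 lie at 0% overlap, and 5 points below -1 lie at 50% or more.

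At 30°C values were analysed for 285 genes only, all lower in fas S.j., with a highest log2 ratio of -0.50, so rises at 30°C were not analysed here. These libraries took no part in the choice of members. The shortened table lists 20 members (10.8%) and 5.54% of all genes of the 24°C table. Of the 20, 14 were also lower at 24°C and 6 were higher there. The falls nrg1, flx1, cwf24, cdc14 and bqt1 were listed at both temperatures. The permease gene nrg1 had 0.503 FPKM in fas S.j. and 1.79 FPKM in wild type at 30°C, and flx1 had 1.95 FPKM in fas S.j. and 3.64 FPKM in wild type. The bqt1 gene, listed at 0 in fas S.j. at 24°C, had 3.25 FPKM in fas S.j. and 5.43 FPKM in wild type at 30°C. Of the 25 rises at 24°C, 1 was listed at 30°C. It was SPAC977.15, which at 30°C had 5.44 FPKM in fas S.j. and 13.9 FPKM in wild type. Of the other listed members that were higher at 24°C, the poly(A) polymerase gene cid11 had 0.265 FPKM in fas S.j. and 0.631 FPKM in wild type at 30°C, and the fluoride channel gene fex1 had 1.69 FPKM in fas S.j. and 2.40 FPKM in wild type. The remaining listed members were glm1, msm1, gal10, rga10, wtf23, mug123, SPAC922.09, SPAC1D4.07c, SPBC13G1.15c, SPBPB2B2.05, SPCC794.16 and bqt2, with changes between -1.58 and -0.40 at 30°C.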

How the data were processed

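Strand-specific poly(A) libraries were made with the KAPA mRNA HyperPrep kit. The labels and the paper differ on the sequencer and the read length. On a Galaxy server the authors groomed the reads, aligned them by TopHat and ran Cuffdiff, which gave the deposited FPKM values. Versions, the annotation and the genome build are not given in the sources used here, nor is whether Cuffdiff used the strand. The deposited log2 fold changes, test statistics, p-values and q-values are the authors' own comparison of 1 library with 1 library and were not used. No library was pooled, and no per-sample value column was left unused.

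The members were the genes with 1 to 5 FPKM in wild type at 24°C, and changes used a pseudocount of 1. The members and the gene lists were chosen with earlier results of these data known. With 1 library per group there was no test. Genes named were the 15 largest and 8 lowest changes whose interval left out 1, all members of the lists of meiotic regulators, recombination, spore and mating genes, mug and meu members past 2-fold, members listed at 30°C and genes at the limits of the window. Others named, such as dynein, wtf, Tf2 and neighbouring genes, were chosen after their values were seen.

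Reads were estimated from FPKM steps with gene length less 200 bases, a length at which all 10 genes in fas S.j. and all 8 in wild type came within 0.1 of whole reads, and genes with an effective length under 100 bases were left out. The step search was tested on simulated data. Intervals were exact Clopper-Pearson intervals at 95%. Identifiers matched ASM294v3 for 5106 of 5143 genes. Copies were found with blastn 2.17.0. Scripts ran under scipy 1.17.1, matplotlib 3.10.9, pandas 2.3.3, numpy 2.4.6 and Python 3.11.15. The alternatives were other pseudocounts, centring, other windows, a read minimum, other lengths, a 99% interval and genes alone in their locus. Leaving out overlapped genes and genes with copies was added after seeing the data.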

Additional observations from a re-analysis of the deposited data

Results flagged for a closer look

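SPAC977.15 moved in opposite directions at the 2 temperatures. Its change was 4.01 at 24°C (44.4 FPKM in fas S.j., 1.83 FPKM in wild type) and -1.21 at 30°C (5.44 FPKM in fas S.j., 13.9 FPKM in wild type). The bouquet gene bqt2 also did, with a change of 0.74 at 24°C (3.26 FPKM in fas S.j., 1.55 FPKM in wild type) and -0.81 at 30°C (0.768 FPKM in fas S.j., 2.11 FPKM in wild type), on 5.42 reads in fas S.j. and 3.27 reads in wild type at 24°C. These genes are picked out because both changes passed 0.5 with opposite signs. With 1 library per strain and temperature the difference between temperatures was not tested, and only genes lower in fas S.j. were analysed at 30°C.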

How the results depend on the processing

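No paired analysis was possible because each strain has 1 library per temperature. The median change of the members kept its sign and moved by less than 0.25 under every alternative run, between 0.19 with the window set on fas S.j. and 0.34 without a pseudocount. Counts that moved by over 1.5 times were these. With genes alone in their locus there were 14 rises, 3 falls, 21 intervals above and 4 below 1, and 0 rises among 5 mug and meu members, in part because fewer genes remain. The window on the geometric mean gave 15 rises. At least 50 estimated reads left 5 falls. Without members overlapped over at least 50% of their length 6 falls and 7 intervals below 1 remained. A pseudocount of 0.1 gave 3 rises among the mug and meu members. Other counts stayed within 1.5 times. At 1 FPKM a gene of median length has about 17.3 reads in wild type, so counting intervals of single members near this limit were wide, such as 1.31 to 3.74 for spn5 at a ratio of 2.21, and differences between cultures were not measured.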

Other observations

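Outside the window, the recombination and segregation genes with at least 1 FPKM in either library had a median change of 0.15 over 9 genes, with 1 rise, and the spore formation genes a median of 0.33 over 12 genes, with none. The spo6 gene had 11.4 FPKM in fas S.j. and 5.58 FPKM in wild type, just above the window. Of the 226 genes under 1 FPKM in wild type, 26 rose in fas S.j. and 106 are listed at 0 in both libraries.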
